A study of Mus musculus with 12 samples.

Results

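The contrast described here is the difference between the effects of 2 gene knockouts on the injured mouse kidney, the effect of losing β-catenin minus the effect of losing CD44, gene by gene. It rests on all 12 libraries of the series and on the 15489 genes, of 54532 in the deposited tables, whose mean FPKM (a read level divided by the length of the gene and the depth of the library) was at least 0.5 in each of 2 tables. The first table holds 3 β-catenin-/- and 3 WT kidneys after UUO, permanent ligation of the left ureter. The second holds 3 CD44-/- and 3 WT kidneys after UIRI. In the study's methods, which do not mention CD44 mice, the left renal pedicle was clamped and released. The opposite kidney was taken out shortly before the end. All animals were C57BL/6 by the labels. The methods describe young male mice among those bought as C57BL/6 and give no age or sex for knockout mice. The β-catenin gene was deleted by floxed alleles and Cre under the Ksp-cadherin promoter, so in tubular epithelium, and other kidney cells keep the gene. The paper's discussion places the deletion mostly in the loop of Henle, distal tubule and collecting duct and in part in the proximal tubule. Its staining result reports loss of β-catenin in most proximal tubules as well. The paper states that Ksp-Cre mice would have been better WT controls. An effect of carrying Cre therefore cannot be told apart from loss of the gene. For CD44 the sources used here state a knockout and no construct. Each library is 1 kidney sample from 1 mouse, and the sample titles name the kidney and no part of it. Knockout, injury model and table go together in this design, so a difference between the effects of the genes and a difference between the settings in which they were measured cannot be told apart.

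β-catenin (Ctnnb1) links cadherins to the cytoskeleton at cell junctions and, after Wnt signals, enters the nucleus to activate genes with TCF/LEF factors. In the injured tubule sustained Wnt/β-catenin activity is known to accompany fibrosis and a loss of tubular transport and fatty acid oxidation. CD44 is a surface receptor for hyaluronan and osteopontin (Spp1) that is carried by leukocytes, fibroblasts and injured tubular cells. Both obstruction and ischemia-reperfusion bring tubular dedifferentiation, infiltration by immune cells and deposition of matrix.

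The targeted genes were read first, since they check the labels. Ctnnb1 stood at 84.7, 71.4 and 71.7 FPKM in the β-catenin-/- UUO libraries and at 91.2, 86.7 and 98.5 in WT UUO. It stood at 87.5, 93.5 and 89.0 in CD44-/- UIRI and at 81.8, 69.5 and 79.4 in WT UIRI. The knockout libraries were thus all below WT in the first table and all above WT in the second, and the effects differed by -0.50 on the log2 scale (SE 0.15, 95% interval -0.83 to -0.18, adjusted p = 0.208). The β-catenin effect on Ctnnb1 was -0.28 (SE 0.10) and did not pass an adjusted p of 0.05 in limma. The CD44 effect was 0.23 (SE 0.10). Ctnnb1 thus checks the β-catenin-/- label by direction only. Cd44 stood at 21.5, 23.2 and 24 FPKM in β-catenin-/- UUO against 33.3, 40.6 and 38.4 in WT UUO. In the libraries labelled CD44-/- it stood at 19.0, 12 and 13.9, which overlapped the 19.9, 16.3 and 17.8 of WT UIRI. The level of Cd44 over the whole gene therefore does not check the CD44-/- label, and every direction drawn here from the CD44 effect is that of the libraries labelled CD44-/-. The difference for Cd44 was -0.41 (SE 0.21, adjusted p = 0.413). Spp1, which encodes osteopontin, stood at 10792, 17640 and 14478 FPKM in β-catenin-/- UUO and at 18620, 19973 and 20584 in WT UUO. It stood at 7607, 12729 and 9164 in CD44-/- UIRI and at 12904, 11325 and 13180 in WT UIRI, and its difference was -0.12 (SE 0.42, adjusted p = 0.928).

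Between 15940405 and 20737443 reads were assigned to genes per library, and libraries of 1 group correlated at 0.966 to 0.985 over genes. Ksp-cadherin (Cdh16), a marker of kidney tubules, was at 255 to 337 FPKM in all 12 libraries. Xist was at no more than 0.022 FPKM and Ddx3y at 9.01 to 16.6 FPKM, which is the pattern of male tissue. WT UIRI replicate 2 stood apart from the other WT UIRI libraries in several gene lists. Its mean level, on the log2 scale relative to the WT mean of its table, was 0.62 for thick ascending limb markers against -0.25 and -0.37, 1.40 for urothelium genes against -0.71 and -0.70, and 0.22 for cytosolic ribosomal proteins against -0.08 and -0.13. It was also 0.28 against -0.13 and -0.14 for respiratory complex I, 0.25 against -0.13 and -0.12 for complexes II to V, and 0.32 against -0.20 and -0.12 for principal cell markers. CD44-/- UIRI replicate 2 stood apart from the other CD44-/- libraries, with a level of 0.56 for proximal tubule markers against 1.67 and 1.49, 0.26 for mitochondrial fatty acid oxidation against 0.82 and 0.78, and 0.60 for gluconeogenesis against 1.36 and 1.26. The same library was at -0.17 for collagens and matrix against -0.81 and -0.60, and at -0.43 for macrophage and monocyte markers against -0.94 and -0.98. β-catenin-/- UUO replicates 1 and 3 carried urothelium genes at 2.79 and 1.76, against -0.02 in replicate 2. The part of these libraries in the results below was not tested beyond leaving each out. As these are samples of kidney tissue with many cell types, fewer cells of a type and less RNA per cell cannot be told apart.

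The effects of the knockouts were similar in direction over most genes. Across the 15489 genes the β-catenin effect and the CD44 effect had a Pearson r of 0.587 and a Spearman rho of 0.531, given as a description over genes, which are not independent replicates. The effects shared no control libraries. Both had the same sign in 10622 genes (68.6%). The spread of effects over genes was wider for β-catenin, with an SD of 0.490 on the log2 scale, than for CD44, with 0.379. The 265 genes chosen for a mean of at least 1 over both effects had a median β-catenin effect of 1.36 and a median CD44 effect of 1.10. The 196 genes chosen for a mean effect of -1 or lower had medians of -1.50 and -0.91. The median difference was 0.29 in the higher set and -0.56 in the lower set. A choice by the mean of both effects favours genes in which the effect with the wider spread is the larger. The signs of these medians are therefore not a result apart from that spread.

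**Figure D1:**
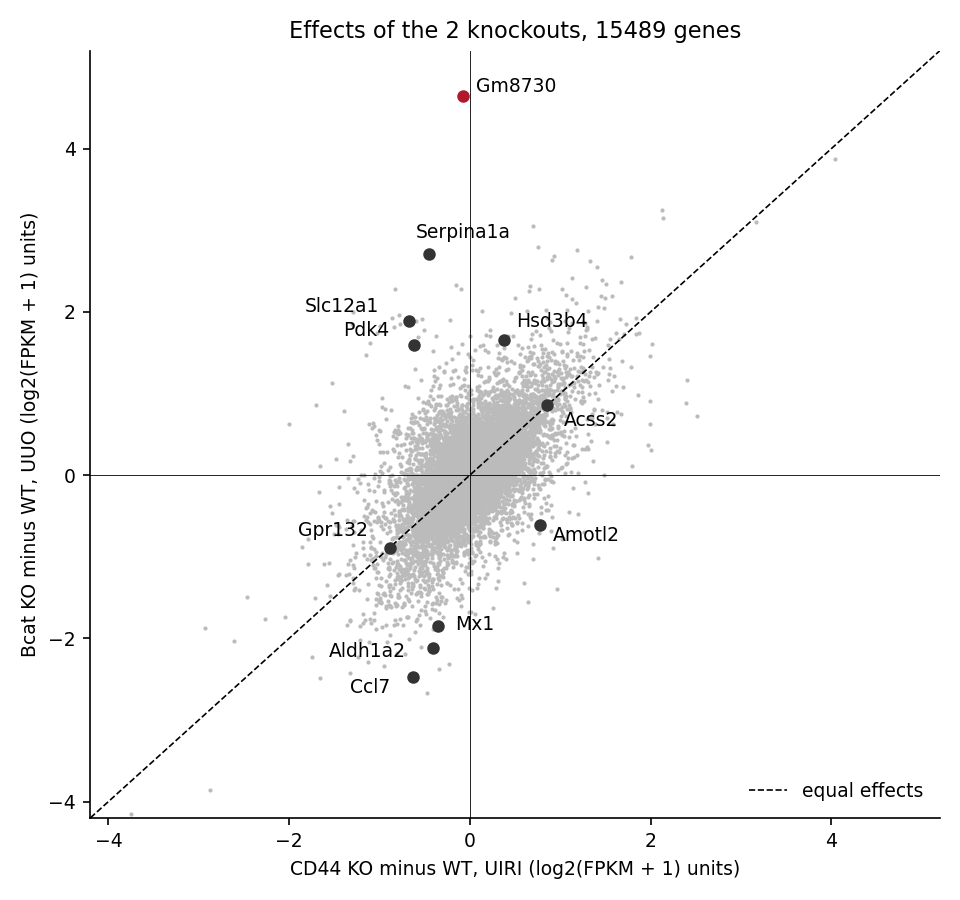
Effect of the β-catenin knockout after UUO (vertical axis) against that of the CD44 knockout after UIRI (horizontal axis) for 15489 genes, each as the difference of group means of log2(FPKM + 1), with equal effects on the dashed line. The cloud follows the dashed line with a Pearson r of 0.587, and Gm8730 (red), at 4.64 against -0.07, lies farthest above it.

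Some genes had effects of nearly the same size. Acss2, the cytosolic acetyl-CoA synthetase, was at 14.7, 15.5 and 14.1 FPKM in β-catenin-/- UUO against 8.07, 7.52 and 7.51 in WT UUO. It was at 15.5, 10.1 and 16.0 in CD44-/- UIRI against 7.16, 7.03 and 7.06 in WT UIRI, so both knockouts lay wholly above WT, by 0.86 and 0.86. Its difference was 0.00 with a 95% interval of -0.43 to 0.43. Gpr132, a G protein-coupled receptor of immune cells, was at 1.48, 2.08 and 1.82 FPKM in β-catenin-/- UUO against 3.36, 4.70 and 4.60 in WT UUO. It was at 2.87, 1.94 and 2.13 in CD44-/- UIRI against 4.74, 4.80 and 5.75 in WT UIRI, wholly below WT in both, and its difference was -0.01 with an interval of -0.46 to 0.44. C2cd2l and Ush1c, a scaffold protein of microvilli, had differences of -0.08 and 0.02 with both knockouts above WT, and Pld4 and Apobec3, an antiviral cytidine deaminase, had differences of -0.04 and 0.06 with both below WT. In all, 1510 genes with both effects above 0 and 805 with both below 0 and a level of at least 5 FPKM in 1 group had an interval of the difference within 0.5 of 0. Over all genes tested the interval lay within 0.5 of 0 for 4003 (25.8%) and within 1 of 0 for 11900 (76.8%).

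The difference between the knockout effects passed an adjusted p of 0.05 in limma for 1 gene, which is 0.00646% of the genes tested, and for 0 genes in the negative direction. That gene was Gm8730 (ENSMUSG00000063696), annotated as a processed pseudogene at chr8:102864845-102865798 of GRCm38, minus strand. It was outside the rule for named genes, which took protein-coding genes, and is named because it was the only call. Its FPKM was 108, 113 and 101 in β-catenin-/- UUO against 3.78, 3.25 and 2.96 in WT UUO. In the other table it was 6.54, 8.13 and 6.59 in CD44-/- UIRI against 7.87, 8.03 and 6.62 in WT UIRI. The 3 β-catenin-/- libraries were all above WT UUO, while the CD44-/- and WT UIRI libraries overlapped. The β-catenin effect was 4.64, the CD44 effect -0.07, and the difference 4.72 on the log2 scale (SE 0.16, 95% interval 4.37 to 5.06, adjusted p = 9.19e-08).

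Gm8730 is a near copy of Rplp0, which encodes the acidic ribosomal protein P0 of the large ribosomal subunit. Its 954 bases aligned without a gap to the coding sequence of Rplp0 transcript 201 (GENCODE vM21), with 942 identical and 12 differing bases. Bases 361 to 460 from the start of both are shown because they hold 3 of the differing bases, in capitals, by which a read can be placed on the pseudogene and not on Rplp0. The Gm8730 stretch is at chr8:102865339-102865438 on the minus strand, and that of Rplp0 at chr5:115561141-115561240 on the plus strand.
Gm8730: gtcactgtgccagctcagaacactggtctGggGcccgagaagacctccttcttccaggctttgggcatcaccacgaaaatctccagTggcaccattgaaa
Rplp0: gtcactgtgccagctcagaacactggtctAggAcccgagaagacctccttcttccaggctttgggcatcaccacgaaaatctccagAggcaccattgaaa
A read that covers none of the differing bases fits both genes equally, so the FPKM of Gm8730 is uncertain and depends on how such reads were assigned. Rplp0 itself was at 717, 677 and 594 FPKM in β-catenin-/- UUO and at 618, 726 and 626 in WT UUO. It was at 827, 886 and 818 in CD44-/- UIRI and at 962, 1145 and 911 in WT UIRI. Its difference was 0.26 (SE 0.20, adjusted p = 0.595), and the β-catenin-/- and WT UUO libraries overlapped. The reads recovered from the FPKM of Gm8730 numbered 1767, 1711 and 1708 in β-catenin-/- UUO and 48 to 141 in each of the other 9 libraries. Of the other 5 genes that share a run of 60 bases with Gm8730, Rplp0 among them, the pseudogenes Gm14165, Gm5779 and Rplp0-ps1 had no more than 6 reads in any library. The remaining pseudogene, Gm9625, had 126, 14 and 13 reads in β-catenin-/- UUO and 20, 16 and 10 in WT UUO. Its 4 to 12 reads in the CD44 table kept it below the limit for testing there.

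No other gene passed the adjusted test. The next adjusted p was 0.118, and 305 genes were under 0.2. The difference was positive with an unadjusted p under 0.05 for 1094 genes (7.06%) and negative for 1047 (6.76%). When FPKM was rescaled so that every library had the same total, the same split was 764 positive and 1258 negative. The median standard error of a difference was 0.2003, and 473 genes had a difference of at least 1 in size. Among the 2141 genes with an unadjusted p under 0.05, the effects had opposite signs in 1356, the β-catenin effect was the larger of 2 effects of the same sign in 614, and the CD44 effect was the larger in 171. The β-catenin-/- libraries were all above and the CD44-/- libraries all below their own WT for 89 genes (0.575%), and the reverse held for 77 (0.497%). Genes below are therefore described by their values, and the counts of list members with an unadjusted p under 0.05 are to be read against the 7.06% and 6.76% of all genes. Besides the genes named by rule, those with the smallest p or the largest difference were chosen after their values were seen.

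**Figure D2:**
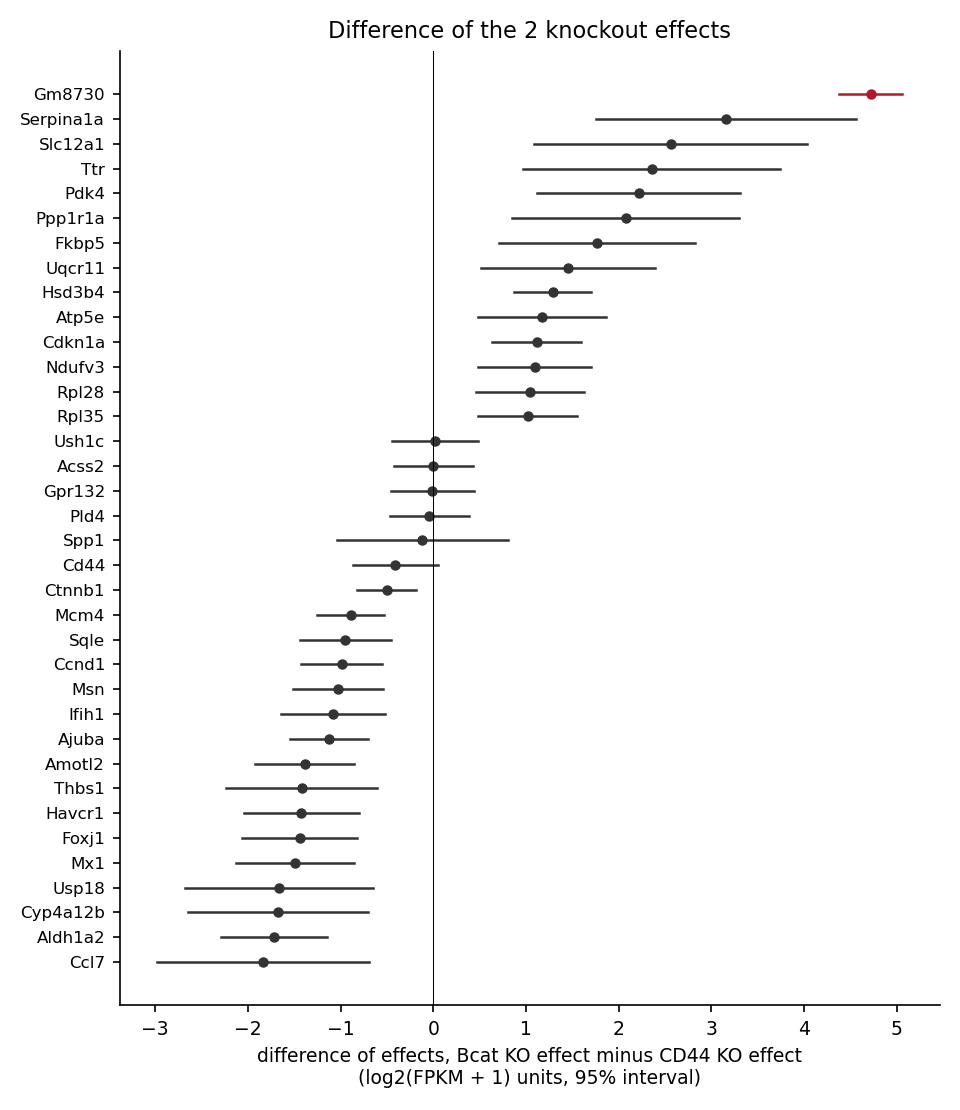
Difference of the knockout effects (β-catenin minus CD44, in log2(FPKM + 1) units) for 36 named genes, as points with 95% intervals, with the gene called at an adjusted p under 0.05 in red. Gm8730 at 4.72 was called, the 4 genes from Ush1c to Pld4 sit on 0, and the intervals of Spp1 and Cd44 include 0.

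Hsd3b4, a steroid dehydrogenase of a gene family with close copies, had the smallest p after Gm8730. It was at 12.9, 10.7 and 11.6 FPKM in β-catenin-/- UUO against 2.52, 3.39 and 3.20 in WT UUO, and at 7.52, 6.00 and 8.65 in CD44-/- UIRI against 5.17, 5.11 and 6.02 in WT UIRI. The β-catenin groups were wide apart and the CD44 groups overlapped, with a difference of 1.29 (SE 0.19, adjusted p = 0.118). Aldh1a2, which makes retinoic acid, was at 15.2, 13.2 and 13.1 FPKM in β-catenin-/- UUO against 52.3, 77.4 and 63.2 in WT UUO. It was at 21.0, 26.8 and 17.5 in CD44-/- UIRI against 35.5, 24.7 and 27.1 in WT UIRI, and the difference was -1.72 (SE 0.26, adjusted p = 0.118). Foxj1, the master factor of motile cilia, was at 0.930, 0.647 and 0.729 FPKM in β-catenin-/- UUO, all below the 3.18, 3.18 and 2.33 of WT UUO. Its 8.50, 8.53 and 5.11 in CD44-/- UIRI overlapped the 7.54, 5.06 and 4.62 of WT UIRI, and the difference was -1.44 (SE 0.28, adjusted p = 0.132). Cdkn1a, the cell cycle inhibitor p21, was at 20.3, 18 and 25.6 FPKM in β-catenin-/- UUO against 10.3, 13.1 and 15.9 in WT UUO. It was at 11.8, 12.6 and 13.0 in CD44-/- UIRI against 19.1, 16.5 and 16.7 in WT UIRI. The β-catenin-/- libraries were all above and the CD44-/- libraries all below their WT, with a difference of 1.11 (SE 0.22, adjusted p = 0.132).

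**Figure D3:**
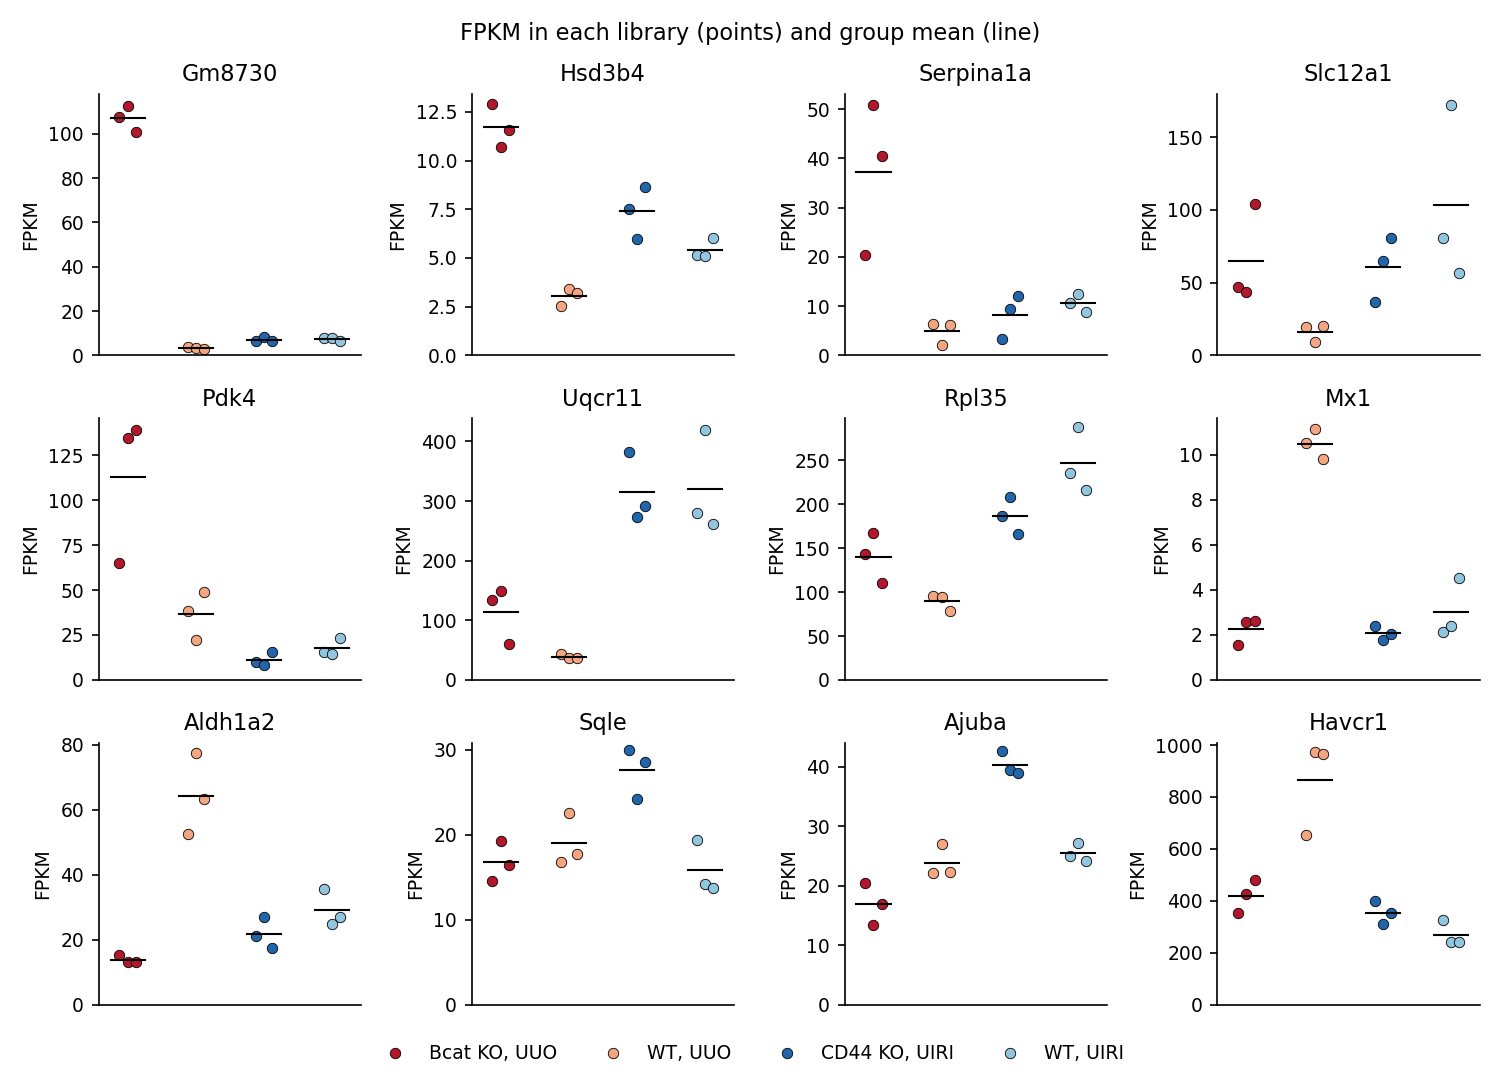
FPKM of 12 genes in each library (points, 3 per group, vertical axes from 0) with group means as lines, for β-catenin-/- and WT after UUO (red shades) and CD44-/- and WT after UIRI (blue shades). The tables were normalised separately, so knockout and WT are compared within a colour; the β-catenin-/- points of Gm8730 sit between 101 and 113 and those of WT UUO between 2.96 and 3.78.

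Genes of the respiratory chain had higher β-catenin effects than CD44 effects in nearly every member. Complexes I to V of the inner mitochondrial membrane turn the electrons of fat and sugar breakdown into ATP. Of 40 tested nuclear genes of complexes II to V, 39 had a positive difference, 17 with an unadjusted p under 0.05 and 0 in the negative direction, and 0 passed the adjusted test. Their median difference was 0.56, against -0.01 over all genes, from a median β-catenin effect of 0.64 and a median CD44 effect of 0.11. Of 37 complex I genes, 36 had a positive difference, 12 with an unadjusted p under 0.05, and the median was 0.49, or 0.32 without WT UIRI replicate 2. These counts moved with single libraries. For complexes II to V the 17 became 27 without β-catenin-/- UUO replicate 3, 10 without WT UUO replicate 3, and 9 without β-catenin-/- UUO replicate 2, CD44-/- UIRI replicate 2 or WT UIRI replicate 2. For complex I the 12 became 22 without β-catenin-/- UUO replicate 3 or CD44-/- UIRI replicate 1, and 7 without β-catenin-/- UUO replicate 2, WT UUO replicate 3, CD44-/- UIRI replicate 2 or WT UIRI replicate 2. Uqcr11, a small subunit of complex III, was at 135, 149 and 60.9 FPKM in β-catenin-/- UUO against 42.9, 36.7 and 36.3 in WT UUO. In CD44-/- UIRI it was at 382, 274 and 291, within the range of the 279, 420 and 261 of WT UIRI. Its difference was 1.45 (SE 0.43, adjusted p = 0.209). Atp5e, a subunit of ATP synthase, was at 90.6, 96.5 and 61.3 FPKM in β-catenin-/- UUO, all above the 44.2, 43.9 and 35.2 of WT UUO. Its 190, 126 and 147 in CD44-/- UIRI overlapped the 160, 228 and 144 of WT UIRI, and the difference was 1.17 (SE 0.31, adjusted p = 0.193). Ndufv3 and Ndufa7 of complex I had differences of 1.09 (SE 0.28) and 0.79 (SE 0.23). The 13 protein genes of the mitochondrial genome itself had a median difference of 0.04, whose sign turned with the library left out (-0.10 to 0.15), with a median β-catenin effect of 0.44 and a median CD44 effect of 0.46.

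Fatty acid oxidation differed less between the knockouts than the respiratory chain did by its medians, a contrast that was not tested. The 32 tested genes of mitochondrial fatty acid oxidation had a median β-catenin effect of 0.81 and a median CD44 effect of 0.59, with a median difference of 0.25 and 3 members at an unadjusted p under 0.05, all positive. The median was 0.09 without CD44-/- UIRI replicate 2 and 0.40 without β-catenin-/- UUO replicate 3, and the count of 3 ranged from 1 to 9, the highest without the latter library. For PPARα, the nuclear receptor that switches on fat burning, and its targets the medians were 1.04 and 0.73, and 5 of 37 members had a positive and 2 a negative difference at that level. These 7 became 18 without β-catenin-/- UUO replicate 3 and 12 without CD44-/- UIRI replicate 3. Pdk4, the kinase that turns off pyruvate dehydrogenase and so spares glucose, was at 65.1, 135 and 139 FPKM in β-catenin-/- UUO against 38.3, 22 and 49 in WT UUO. It was at 9.87, 8.58 and 15.4 in CD44-/- UIRI against 15.6, 14.2 and 23.3 in WT UIRI. The β-catenin groups did not overlap and the CD44 groups did, with a difference of 2.22 (SE 0.50, adjusted p = 0.146). Acsl1, which couples fatty acids to coenzyme A, lay above WT in both knockouts, by 1.29 and 0.40, with a difference of 0.89 (SE 0.22, adjusted p = 0.165). Cpt1a, the carnitine transferase that admits fatty acids to mitochondria, also lay above WT in both, by 0.79 and 0.52, and its difference was 0.28 with an interval of -0.27 to 0.83. Of 20 genes around LKB1 and AMPK, the kinases that sense low energy, 2 had an unadjusted p under 0.05. Stk11, which encodes LKB1, was at 32.4, 29.3 and 23.2 FPKM in β-catenin-/- UUO against 18.8, 18.4 and 21.5 in WT UUO. It was at 34.2, 34.5 and 34.6 in CD44-/- UIRI against 33.8, 35.6 and 32.4 in WT UIRI, and the difference was 0.48 (SE 0.16, adjusted p = 0.242). Prkag1, a regulatory subunit of AMPK, had a difference of 0.63 (SE 0.18, adjusted p = 0.203). Of 19 genes for Sumo proteins and their enzymes, Nsmce2, a Sumo ligase, had a difference of -0.38 and Sumo3 one of 0.32, and the median of the list was -0.07, or between -0.16 and -0.03 under other settings.

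Cytosolic ribosomal proteins, the parts of the protein-making machine, had a positive difference throughout. All 48 tested members had a positive difference, 23 of them with an unadjusted p under 0.05, and 0 passed the adjusted test. The 23 became 35 without WT UUO replicate 2 and 14 without WT UUO replicate 3 or WT UIRI replicate 2. The median β-catenin effect was 0.18 and the median CD44 effect -0.28, so the median difference of 0.46 came from both sides. Rpl35, of the large subunit, was at 143, 168 and 110 FPKM in β-catenin-/- UUO against 95.6, 94.9 and 78.1 in WT UUO. It was at 187, 208 and 166 in CD44-/- UIRI against 236, 288 and 216 in WT UIRI, so the groups did not overlap in either table and pointed in opposite directions. Its difference was 1.02 (SE 0.24, adjusted p = 0.151), and that of Rpl28 was 1.04 (SE 0.26, adjusted p = 0.173). Rps28, of the small subunit, had a difference of 1.00 (SE 0.26). The mean level of the list was 0.30, 0.35 and 0.02 in the β-catenin-/- libraries, on the log2 scale relative to WT UUO, and -0.25, -0.24 and -0.36 in the CD44-/- libraries relative to WT UIRI. In WT UUO it was -0.07, 0.18 and -0.12, so β-catenin-/- UUO replicate 3 lay within the WT range and the groups overlapped. In WT UIRI it was -0.08, 0.22 and -0.13, and the CD44-/- libraries lay wholly below. Many of these genes have processed copies in the genome with which reads may be shared, such as Rpl28-ps1, whose own difference was 1.47 (SE 0.23, adjusted p = 0.118).

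Interferon-stimulated genes, the antiviral genes that type I interferon switches on, had the opposite direction. All 40 tested members had a negative difference, 13 of them with an unadjusted p under 0.05, and 0 passed the adjusted test. The median β-catenin effect was -0.85 and the median CD44 effect -0.03, with a median difference of -0.88. Mx1, a dynamin-like GTPase that blocks influenza viruses, was at 1.54, 2.59 and 2.60 FPKM in β-catenin-/- UUO against 10.5, 11.2 and 9.81 in WT UUO. It was at 2.38, 1.76 and 2.06 in CD44-/- UIRI against 2.14, 2.40 and 4.55 in WT UIRI, so the knockout lay wholly below WT in the first table and overlapped it in the second. The difference was -1.49 (SE 0.29, adjusted p = 0.132). Ifih1, the RNA sensor MDA5, was at 4.36, 5.78 and 4.95 FPKM in β-catenin-/- UUO against 6.80, 10.7 and 11.7 in WT UUO. Its 4.91, 3.70 and 5.06 in CD44-/- UIRI overlapped the 3.46, 3.13 and 4.10 of WT UIRI, and the difference was -1.08 (SE 0.26, adjusted p = 0.150). Usp18, which removes ISG15 from proteins and damps interferon signalling, had a difference of -1.66 (SE 0.46), and Oas3 and Oas1a, of a family of double-stranded RNA sensors with close copies, had -1.42 (SE 0.41) and -1.66 (SE 0.51). Isg15 itself was at 12.2, 29.0 and 9.23 FPKM in β-catenin-/- UUO, overlapping the 27.1, 67.3 and 72.6 of WT UUO, with a difference of -1.77 and an interval of -3.60 to 0.06. The mean level of the list was -1.40, -0.20 and -1.27 in β-catenin-/- UUO and -0.60, 0.28 and 0.32 in WT UUO, so replicate 2 of the knockout lay inside the WT range. It was 0.13, -0.60 and 0.28 in CD44-/- UIRI and -0.08, -0.14 and 0.22 in WT UIRI, and replicate 2 of that knockout was the lowest of its table. Without β-catenin-/- UUO replicate 2 the median difference was -1.36, which is over 1.5 times as large, and the count of 13 became 30. The count was 25 without WT UUO replicate 1, 21 without CD44-/- UIRI replicate 2, and 8 without β-catenin-/- UUO replicate 1, WT UUO replicate 2 or 3, CD44-/- UIRI replicate 3, or WT UIRI replicate 1 or 2.

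The promoters of these genes are shown because every list member had a negative difference and interferon is known to act through a shared DNA element. The element searched was the core GAAANNGAA, on both strands, in windows of 300 bases that start upstream of the transcription start and end inside the gene (RefSeq, GRCm38.p6), which 10783 tested genes had. The core was in 799 of these windows (7.41%), in 20 of the 30 interferon-stimulated genes with a window (66.7%) and in 10 of 37 cytosolic ribosomal protein genes (27.0%). Among genes with an unadjusted p under 0.05 it was in 7.65% of those with a positive and 10.3% of those with a negative difference. The 2 windows below belong to list members with a small p and the core, at chr2:62646206-62646505 for Ifih1 and chr5:120777610-120777909 for Oas3, both on the minus strand, with each copy of the core or of its reverse complement in capitals and overlapping copies joined.
Ifih1: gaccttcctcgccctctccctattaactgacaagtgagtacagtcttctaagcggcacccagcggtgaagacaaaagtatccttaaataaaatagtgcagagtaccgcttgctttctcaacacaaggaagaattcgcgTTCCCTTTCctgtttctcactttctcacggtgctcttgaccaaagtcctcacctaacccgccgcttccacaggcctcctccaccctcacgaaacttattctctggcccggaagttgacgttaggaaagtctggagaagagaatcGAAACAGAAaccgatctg
Oas3: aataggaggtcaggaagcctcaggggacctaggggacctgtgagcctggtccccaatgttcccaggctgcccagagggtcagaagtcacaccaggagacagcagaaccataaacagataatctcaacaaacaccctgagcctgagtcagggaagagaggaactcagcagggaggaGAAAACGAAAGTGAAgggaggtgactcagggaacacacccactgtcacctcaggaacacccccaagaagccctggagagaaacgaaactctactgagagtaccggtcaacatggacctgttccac
The TCF/LEF core CTTTGAT, through which β-catenin acts, was in 2.47% of all windows, in 3.17% of those with a positive and in 2.95% of those with a negative difference at an unadjusted p under 0.05. The shares were 12.6%, 13.6% and 11.1% for the nuclear receptor element AGGTCA, 4.64%, 5.54% and 5.09% for the HNF1 element GTTAAT, and 10.03%, 9.37% and 8.98% for the E-box CACGTG. A match describes the letters of a window and is not a bound site.

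**Figure D4:**
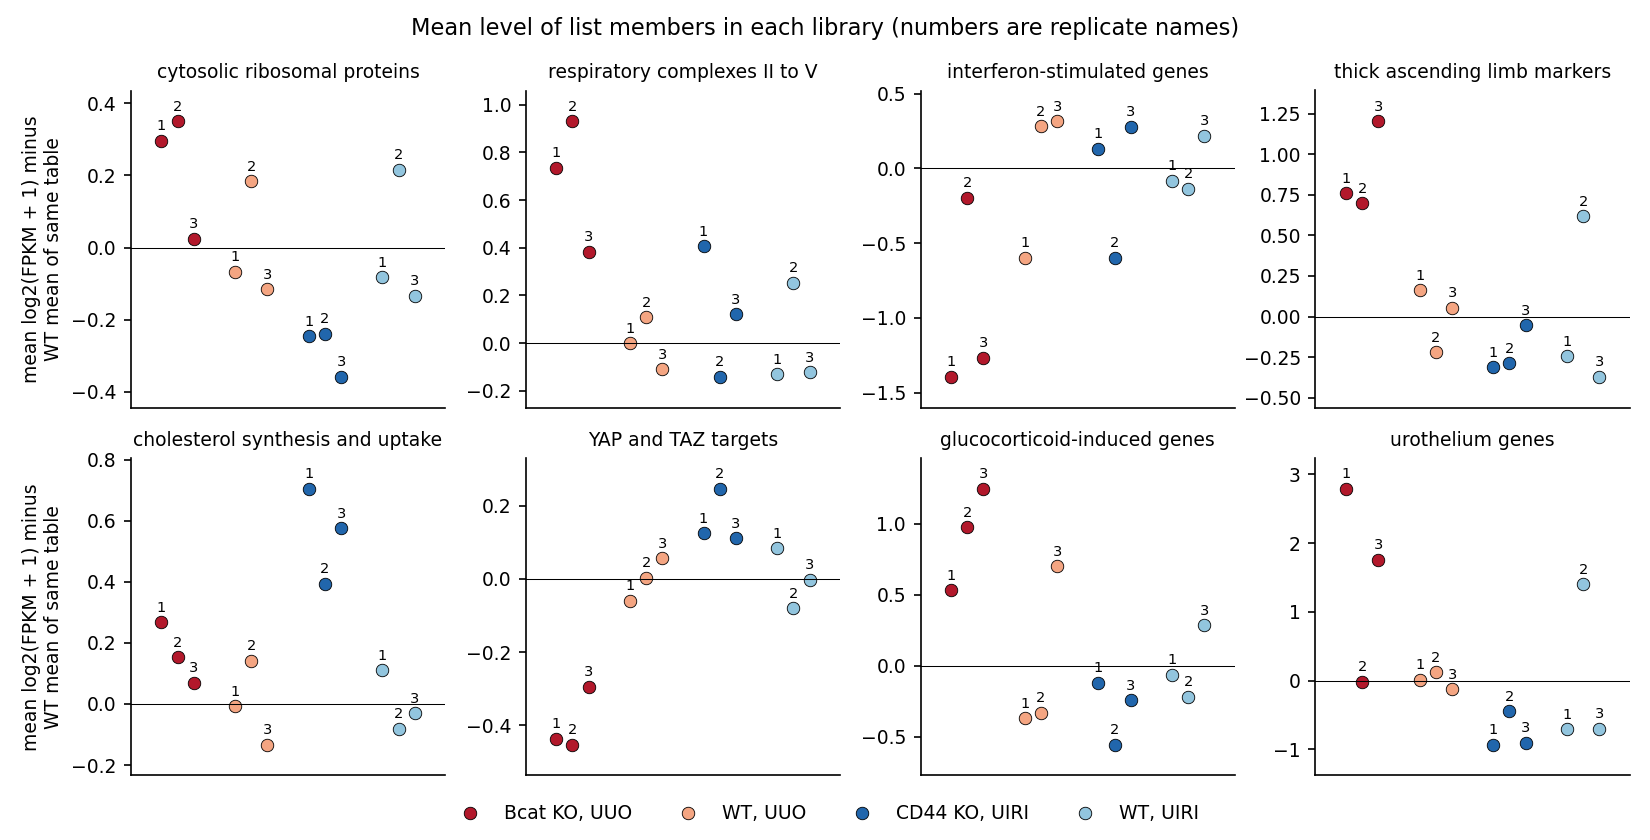
Mean log2(FPKM + 1) of the tested members of 8 gene lists in each library, relative to the WT mean of the same table (0 line), with replicate numbers above the points. The 3 β-catenin-/- points lie above 0 and the 3 CD44-/- points below 0 for cytosolic ribosomal proteins and thick ascending limb markers, and WT UIRI replicate 2 is the highest of its group in both and in urothelium genes, at 1.40. The CD44-/- points of thick ascending limb markers lie within the WT UIRI range. For cytosolic ribosomal proteins, β-catenin-/- replicate 3 lies within the WT UUO range.

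By their medians, the chemokine, macrophage and matrix lists lay below WT in both effects, and lower in the β-catenin effect. Genes of T and cytotoxic lymphocytes were lower in the CD44 effect, and those of B and plasma cells were not. The 32 tested chemokines and cytokines had a median β-catenin effect of -1.13 and a median CD44 effect of -0.38, with 4 members negative and 1 positive in the difference at an unadjusted p under 0.05. These 5 became 11 without WT UUO replicate 1 and 9 without WT UUO replicate 3. Ccl7, a chemokine that draws monocytes, was at 5.30, 6.83 and 4.29 FPKM in β-catenin-/- UUO against 15.5, 44.9 and 57.7 in WT UUO. It was at 9.09, 6.89 and 6.52 in CD44-/- UIRI against 12.9, 11.3 and 11.9 in WT UIRI, below WT in both tables without overlap. Its difference was -1.84 (SE 0.52, adjusted p = 0.203), and it was called only when WT UUO replicate 1 was left out, at -2.39 with an adjusted p of 0.0175. Cx3cl1, the membrane-bound chemokine fractalkine, had a difference of -0.91 (SE 0.21, adjusted p = 0.150). Il1b was at 112 FPKM in WT UUO replicate 3 against 7.43 and 7.11 in the other WT UUO libraries, and its difference of -2.19, with an interval of -4.75 to 0.37, was -0.93 without that library. The 20 macrophage and monocyte markers had medians of -1.07 and -0.78. Their median difference of -0.24 became -0.01 without CD44-/- UIRI replicate 2. The difference was negative in 14 of the 20 and positive in 6, with 3 negative and 1 positive at an unadjusted p under 0.05. Adgre1, the macrophage marker F4/80, was below WT without overlap in both tables, with effects of -1.57 and -0.82 and a difference of -0.74 (SE 0.23, adjusted p = 0.222). Mertk, the member of this list with the smallest p, went the other way. Its β-catenin-/- libraries were all above and its CD44-/- libraries all below their WT, by 0.42 and -0.46. The difference for Mertk was 0.88 with an interval of 0.37 to 1.40. The 20 tested genes of T and cytotoxic lymphocytes had medians of -0.62 and -1.04, and 14 of them had a positive difference, with a median of 0.33 and 0 at an unadjusted p under 0.05, or 6 without WT UUO replicate 2. The 11 tested B and plasma cell genes had medians of -0.71 and -0.54. Their median difference was -0.27, or 0.15 without WT UUO replicate 2, with 7 members negative and 4 positive. At an unadjusted p under 0.05 there was 1 positive member and 0 negative. The median difference was 0.12 over 16 dendritic and MHC class II genes and -0.04 over 19 genes of MHC class I and antigen processing, and both signs turned with the library left out. The 34 collagens and matrix genes had a median difference of -0.24, which was -0.04 without CD44-/- UIRI replicate 2 and -0.51 without CD44-/- UIRI replicate 1. It had 6 members negative and 1 positive at an unadjusted p under 0.05, and these 7 became 12 without β-catenin-/- UUO replicate 1 and 4 without β-catenin-/- UUO replicate 3, WT UUO replicate 2 or WT UIRI replicate 2. Thbs1, the matrix protein thrombospondin 1 that activates TGF-β, was at 16.9, 12.1 and 24.4 FPKM in β-catenin-/- UUO against 44.5, 45.4 and 43.6 in WT UUO. Its 22.9, 47.0 and 31.3 in CD44-/- UIRI spanned the 34.8, 25.7 and 31.2 of WT UIRI, and the difference was -1.42 (SE 0.37, adjusted p = 0.185). The TGF-β receptor gene Tgfbr2 and the transcription factor gene Snai1 had differences of -0.67 (SE 0.19) and -0.78 (SE 0.22). Timp3, an inhibitor of metalloproteinases, went the other way round, with CD44-/- UIRI at 69.8, 47.6 and 56.4 FPKM all above the 32.3, 18.9 and 31.5 of WT UIRI. In the first table its 68.4, 60.4 and 63.4 overlapped the 63.9, 51.3 and 60.2 of WT UUO, and the difference was -0.93 (SE 0.28, adjusted p = 0.213).

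Among nephron segments, the markers of the thick ascending limb all had a positive difference and those of the proximal tubule did not share a sign. The thick ascending limb reabsorbs salt through the cotransporter NKCC2, the product of Slc12a1. All 10 of its tested markers had a positive difference, 6 with an unadjusted p under 0.05 and 0 past the adjusted test, and the median was 0.90 from a β-catenin effect of 0.65 and a CD44 effect of -0.32. Slc12a1 was at 46.6, 43.7 and 104 FPKM in β-catenin-/- UUO against 19.6, 9.14 and 19.9 in WT UUO. It was at 36.7, 64.8 and 80.9 in CD44-/- UIRI against 80.9, 172 and 56.8 in WT UIRI, where replicate 2 was the highest library of the table. The difference was 2.56 (SE 0.67, adjusted p = 0.185), and that of Ppp1r1a, a phosphatase inhibitor, was 2.08 (SE 0.56, adjusted p = 0.191). Umod, which encodes uromodulin, the main protein of normal urine, had 1.25 (SE 0.47, adjusted p = 0.284). The mean level of the thick ascending limb list was -0.31, -0.29 and -0.05 in CD44-/- UIRI. These levels all lay within the WT UIRI range of -0.37 to 0.62, whose upper end was replicate 2. Without WT UIRI replicate 2 the median of the list was 0.48, and the count of 6 became 3 without that library, β-catenin-/- UUO replicate 3 or CD44-/- UIRI replicate 1. The 28 proximal tubule markers had median effects of 1.07 and 1.21, and 0 of them had an unadjusted p under 0.05 in either direction. The difference was negative in 19, with a median of -0.12. Without CD44-/- UIRI replicate 2 the median was -0.33 and 8 of the 28 had an unadjusted p under 0.05. Slc6a19, the neutral amino acid transporter of the brush border, was at 22.7, 28.6 and 37.8 FPKM in β-catenin-/- UUO against 8.04, 2.57 and 5.44 in WT UUO. It was at 20.2, 17.0 and 17.0 in CD44-/- UIRI against 5.31, 4.94 and 7.01 in WT UIRI, with a difference of 0.84 (SE 0.41, adjusted p = 0.392) that was 0.47 without WT UUO replicate 2. Slc13a1, a sulfate transporter, was at 91.6, 130 and 122 FPKM in β-catenin-/- UUO against 89.4, 125 and 160 in WT UUO. It was at 70.4, 40.6 and 62.3 in CD44-/- UIRI against 36.4, 33.7 and 44.2 in WT UIRI. Knockout and WT overlapped in both tables, and the difference was -0.66 (SE 0.35, adjusted p = 0.426). Of 11 intercalated cell markers 10 had a negative difference, with a median of -0.42. Of these, 2 had an unadjusted p under 0.05, a count that ranged from 0 to 4 under other settings. Of 9 distal convoluted tubule markers 6 were negative, with a median of -0.28 and 1 member at that level in each direction. The 10 principal cell markers had a median of 0.10, whose sign turned with the library left out. Havcr1, which encodes the tubular injury marker KIM-1, was at 353, 426 and 481 FPKM in β-catenin-/- UUO against 654, 972 and 964 in WT UUO. Its 400, 309 and 351 in CD44-/- UIRI overlapped the 325, 240 and 241 of WT UIRI, and the difference was -1.43 (SE 0.28, adjusted p = 0.132). Of the 22 tubule injury genes, Havcr1 and Cdkn1a among them, 11 had a negative and 11 a positive difference. Their median was -0.005, and 4 were negative and 1 positive at an unadjusted p under 0.05. The difference for Cdkn1a was 1.11.

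In cholesterol synthesis and uptake the CD44 effect was the larger by its median. Its genes are driven by the factor SREBP2 when sterols run low. Of 23 tested members 18 had a negative difference, 12 with an unadjusted p under 0.05 against 2 in the positive direction, and the median β-catenin effect was 0.17 against a median CD44 effect of 0.53. These 14 became 9 without β-catenin-/- UUO replicate 2 or WT UIRI replicate 2. Sqle, the squalene epoxidase, was at 30.0, 24.2 and 28.5 FPKM in CD44-/- UIRI, above the 19.4, 14.2 and 13.8 of WT UIRI. Its 14.6, 19.2 and 16.4 in β-catenin-/- UUO overlapped the 16.8, 22.6 and 17.7 of WT UUO, and the difference was -0.95 (SE 0.22, adjusted p = 0.150). Insig1, which holds SREBP2 back in the endoplasmic reticulum, had -0.93 (SE 0.26, adjusted p = 0.197). Hmgcs1, an early enzyme of the pathway, was above WT by 0.50 and 0.49, with a difference of 0.01 and an interval of -0.69 to 0.72. Cyp4a12b, a fatty acid hydroxylase from a family with close copies, was also above WT in CD44-/- UIRI alone, by 1.79 against 0.11, with a difference of -1.68 (SE 0.44, adjusted p = 0.186).

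Genes tied to β-catenin and to CD44 by function were described next. Of 39 tested Wnt targets and pathway genes 2 had an unadjusted p under 0.05, both negative, and the median difference was 0.06, a value whose sign turned under other settings, as at -0.15 with limma voom on recovered reads. Ccnd1, which encodes cyclin D1, was at 29.1, 20.9 and 23.6 FPKM in CD44-/- UIRI against 15.1, 13.4 and 14.9 in WT UIRI. Its 8.07, 12 and 9.94 in β-catenin-/- UUO overlapped the 12.9, 11.9 and 11.9 of WT UUO, and the difference was -0.99 (SE 0.20, adjusted p = 0.132). Agtr1a, an angiotensin II receptor, had -0.50 (SE 0.18, adjusted p = 0.258). Of 26 genes of junctions and β-catenin partners 5 were negative and 2 positive at an unadjusted p under 0.05, and Cldn1, a tight junction protein, had -0.80 (SE 0.22, adjusted p = 0.197). Of 16 genes around CD44 and hyaluronan 3 were negative. Msn, which encodes moesin, a linker of CD44 to actin, was at 56.7, 71.0 and 78.8 FPKM in β-catenin-/- UUO against 105, 119 and 139 in WT UUO. Its 77.3, 92.5 and 75.5 in CD44-/- UIRI overlapped the 77.3, 59.8 and 72.5 of WT UIRI, and the difference was -1.03 (SE 0.22, adjusted p = 0.144). Layn, a hyaluronan receptor, had -0.72 (SE 0.16, adjusted p = 0.146). Within 10 Mb of Ctnnb1 14 of 106 tested genes (13.2%) had an unadjusted p under 0.05, 6 positive and 8 negative. Within 10 Mb of Cd44 it was 6 of 75 (8%), and 0 genes passed the adjusted test in either window.

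Proliferation genes had small and mostly negative differences. Of 40 cell cycle and DNA replication genes 39 had a negative difference, 8 with an unadjusted p under 0.05, and the median was -0.31. Without β-catenin-/- UUO replicate 1 it was -0.52, with 22 members at an unadjusted p under 0.05, and without replicate 3 it was -0.20. Mcm4, a subunit of the replicative helicase, was at 4.52, 4.34 and 4.74 FPKM in β-catenin-/- UUO against 7.90, 10.5 and 10.2 in WT UUO. It was at 6.73, 7.33 and 8.35 in CD44-/- UIRI against 7.23, 8.40 and 7.24 in WT UIRI, with overlap in that table only, and the difference was -0.89 (SE 0.16, adjusted p = 0.118). The 20 circadian clock genes had a median difference of 0.24, with 5 members positive at an unadjusted p under 0.05, and 0.14 without β-catenin-/- UUO replicate 3, and the 5 became 3 without β-catenin-/- UUO replicate 2 or WT UUO replicate 2. Usp2, a clock-controlled deubiquitinase, had 0.97 (SE 0.28, adjusted p = 0.208). Of 21 secreted liver-type proteins, which tubules also make in small amounts, 8 had a positive and 0 a negative difference at that level. Serpina1a, an α1-antitrypsin gene with close copies beside it, was at 20.3, 50.8 and 40.4 FPKM in β-catenin-/- UUO against 6.33, 2.19 and 6.07 in WT UUO. Its 3.37, 9.46 and 12 in CD44-/- UIRI overlapped the 10.7, 12.4 and 8.74 of WT UIRI, and the difference was 3.16 (SE 0.64, adjusted p = 0.132), the second largest positive one among the 36 plotted. Ttr, the thyroxine carrier transthyretin, had 2.35 (SE 0.63, adjusted p = 0.190), and Apoa4, an apolipoprotein, 2.12 (SE 0.42, adjusted p = 0.132).

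**Figure D5:**
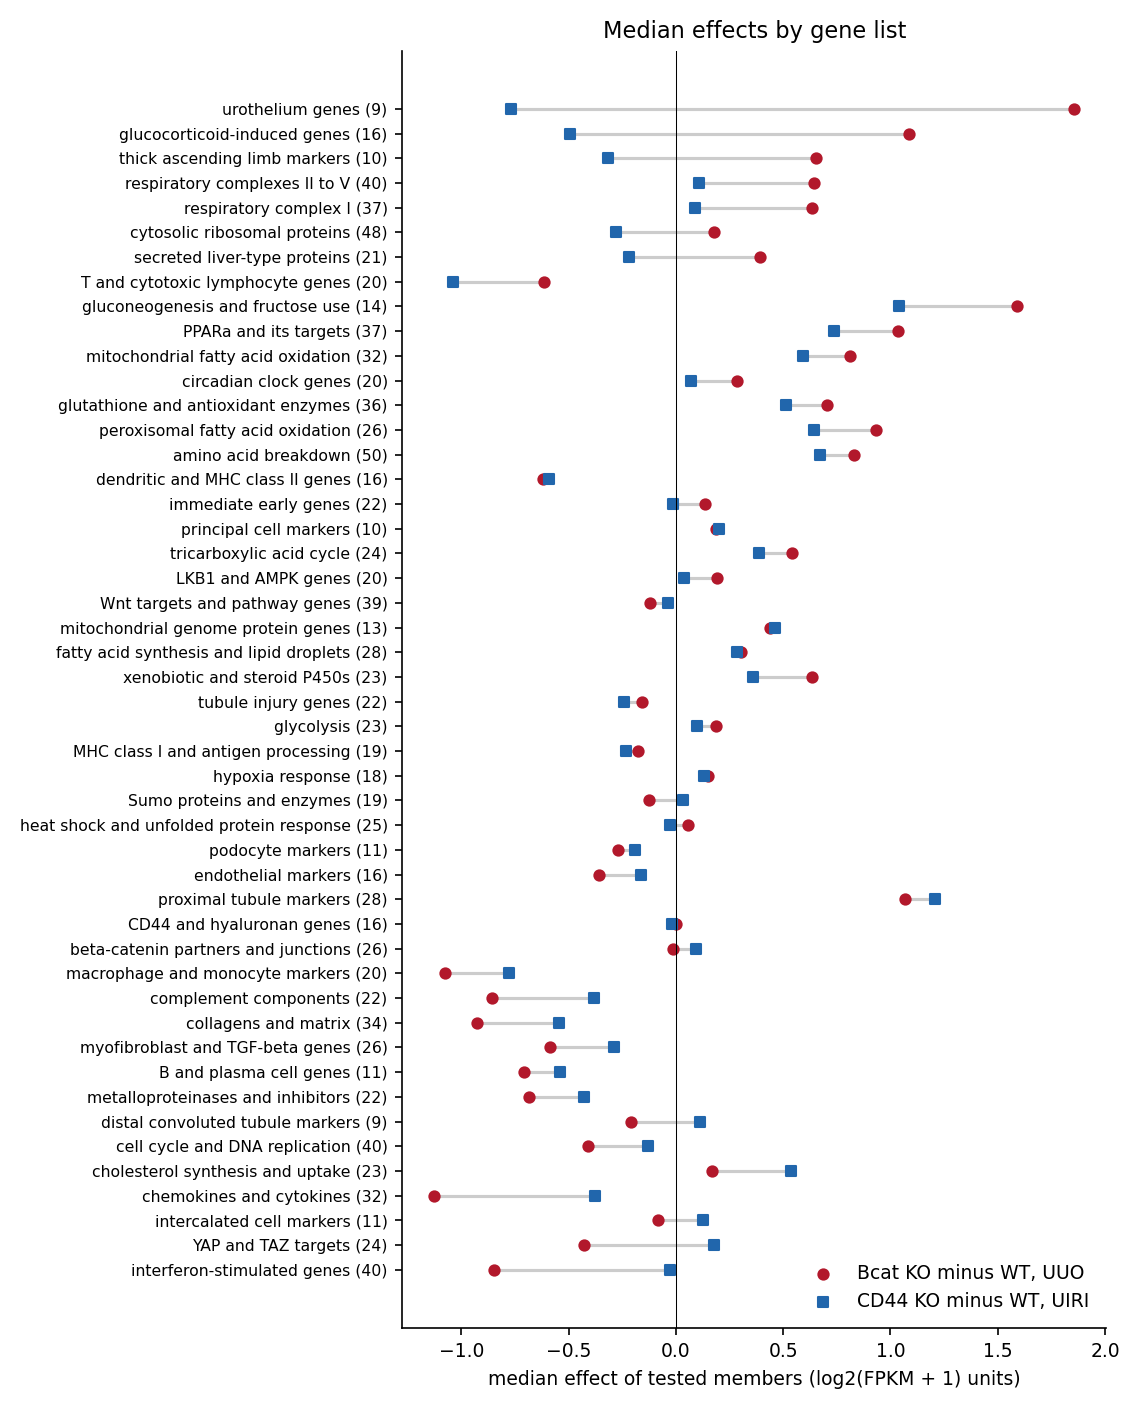
Median β-catenin effect (red circles) and median CD44 effect (blue squares), in log2(FPKM + 1) units, over the tested members of each gene list with at least 9 such members, whose number stands in brackets, ordered by the median difference. The markers of interferon-stimulated genes, at -0.85 and -0.03, are far apart, those of proximal tubule markers, at 1.07 and 1.21, are close, and lists of metabolism lie to the right of 0 in both.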

How the data were processed

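RNA from kidneys of 12 mice was sequenced, 3 per group. Per the labels and the study's methods, the authors aligned reads with HISAT2 2.0.5 to GRCm38 (mm10), obtained read counts from featureCounts 1.5.0-p3 and deposited FPKM in 2 tables, 1 per knockout, each with its own WT columns. All values of both tables were whole multiples of 1 read per gene length (tolerance 0.01), and the depth term followed size factors within a table, so levels are comparable within a table only. WT columns were assigned by the knockout of their table. Gene annotation columns of the tables were used for names and positions only.

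The tables were joined by gene identifier. Genes averaging 0.5 FPKM or more in both tables were fitted with limma 3.58.1 in R 4.3.3 on log2(FPKM + 1), which understates changes of low genes, with 4 group means, all 12 libraries, 8 residual degrees of freedom and a trended variance. The difference of effects was tested two-sided with Benjamini-Hochberg adjustment over all genes and a threshold of 0.05. Effects, differences and list levels are on this log2 scale. The rule for named genes took Ctnnb1, Cd44 and Spp1, called protein-coding genes (none), the 2 members of each list with the smallest p, genes with alike effects, and Nnt, Xist, Ddx3y and Uty. Nnt, at no more than 0.18 FPKM in every library, was too low to test. Lists (48, of 1179 symbols with 1175 in the tables) hold textbook genes. Members and lists were chosen with earlier results of these data known, and 3 further lists after values were seen. p-values measure the spread between these mice. The fit was run on simulated reads with the same spread set for every gene and known changes in the β-catenin knockout group only. That run had no outlying libraries, so it does not show how the fit performs on these data. Sequences were aligned with Biopython 1.88. Alternatives were another pseudocount and filters, TPM scaling, no variance trend, limma voom on recovered reads, a replicate block and leaving out each library.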

Additional observations from a re-analysis of the deposited data

Results flagged for a closer look

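The effects of the knockouts on Gm8730, the processed copy of Rplp0, differed by the test of the difference itself, by 4.72 on the log2 scale with an adjusted p of 9.19e-08 in limma. All 3 β-catenin-/- UUO libraries were above all 3 WT UUO libraries, while CD44-/- UIRI and WT UIRI overlapped. Rplp0, with which it shares most of its sequence, had a difference of 0.26, and reads that fit both genes could not be separated from the deposited values.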

How the results depend on the processing

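Gm8730 was called under all 20 settings, with a difference between 4.66 and 5.08. The counts of called genes were 1 positive and 0 negative with a pseudocount of 0.1, a filter at 1 FPKM (13595 genes tested), no filter (27177 genes tested), TPM scaling, no variance trend and limma voom on recovered reads, which was also 1 and 0 at an adjusted p under 0.1, a threshold added after the data were seen. The next adjusted p after Gm8730 was 0.0836 with no filter, 0.0898 with TPM scaling and 0.110 with voom. Leaving out 1 library gave 1 to 5 positive and 0 to 1 negative calls. The 5 positive calls came without β-catenin-/- UUO replicate 3, the 2 positive calls without β-catenin-/- UUO replicate 1 and without WT UIRI replicate 3, and the 1 negative call without β-catenin-/- UUO replicate 2 or WT UUO replicate 1. Each of 8 other genes was called in 1 setting. The Pearson r of the effects ranged from 0.516 to 0.632.

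Replicate numbers are shared between groups. Same-numbered libraries correlated, after removal of group means, at 0.09, 0.21 and 0.05 in the β-catenin table and at -0.16, -0.03 and -0.03 in the CD44 table. Knockout and WT libraries of unlike number correlated at -0.175 to 0.0887 in the β-catenin table and at -0.103 to 0.149 in the CD44 table. With 3 same-numbered values per table, whether the numbers pair the libraries cannot be decided. With a replicate block within each table the counts were 1 positive and 0 negative, and the next adjusted p was 0.06.

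The median differences kept their sign under all settings for respiratory complexes II to V (0.41 to 0.71), complex I (0.32 to 0.60), cytosolic ribosomal proteins (0.38 to 0.57), interferon-stimulated genes (-1.36 to -0.71), thick ascending limb markers (0.48 to 1.19) and cholesterol genes (-0.48 to -0.34). That of proximal tubule markers turned from -0.12 to 0.02 without CD44-/- UIRI replicate 1 and 0.01 without replicate 3, and was -0.33 without replicate 2. With 3 libraries per group, differences near the median standard error of 0.2003 were not detectable.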

Other observations

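Lists chosen after the values were seen are given here as descriptions. Targets of YAP and TAZ, the coactivators that the Hippo kinases restrain, had a negative difference in 21 of 24 tested members, 11 with an unadjusted p under 0.05 and 0 past the adjusted test in limma, with a median β-catenin effect of -0.43 and a median CD44 effect of 0.18. Ajuba, a LIM protein that restrains Hippo kinases, was at 20.4, 13.5 and 17.0 FPKM in β-catenin-/- UUO against 22.1, 27.0 and 22.3 in WT UUO. It was at 42.6, 39.5 and 39.0 in CD44-/- UIRI against 24.9, 27.1 and 24.2 in WT UIRI. The knockout libraries lay wholly below WT in the first table and wholly above it in the second, with a difference of -1.13 (SE 0.19, adjusted p = 0.118). Amotl2, an angiomotin that binds YAP, had the same arrangement and a difference of -1.39 (SE 0.24, adjusted p = 0.118). The median of the list ranged from -0.61 to -0.41 over all settings.

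Genes that glucocorticoids induce had a positive difference in 15 of 16 tested members, 9 with an unadjusted p under 0.05 and 0 past the adjusted test, with medians of 1.09 and -0.49 for the effects. The mean level of the list, relative to WT UUO, was 0.53, 0.97 and 1.24 in the β-catenin-/- libraries and -0.37, -0.33 and 0.70 in WT UUO, so WT UUO replicate 3 lay within the knockout range. Fkbp5, a cochaperone of the glucocorticoid receptor, was at 13.1, 19.0 and 23.3 FPKM in β-catenin-/- UUO against 5.46, 6.46 and 14.1 in WT UUO. It was at 18.3, 8.40 and 10.3 in CD44-/- UIRI against 19.7, 16.7 and 22.4 in WT UIRI. Both pairs of groups overlapped, and the difference was 1.76 (SE 0.48, adjusted p = 0.197). Zbtb16, a transcription factor, had 2.66 (SE 0.69), and Sgk1, a kinase that raises sodium uptake, 1.44 (SE 0.42).

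Genes of the urothelium, the lining of the renal pelvis and ureter, had a positive difference in all 9 tested members, with a median of 2.62, and moved with single libraries. Psca was at 19.9, 0.804 and 9.23 FPKM in β-catenin-/- UUO against 0.659, 1.18 and 0.684 in WT UUO. It was at 0.739, 2.11 and 1.30 in CD44-/- UIRI against 1.73, 20.03 and 2.17 in WT UIRI. The high libraries were β-catenin-/- UUO replicates 1 and 3 and WT UIRI replicate 2, and without the last the median of the list was 1.79. It was 4.30 with a pseudocount of 0.1 and 5.32 with limma voom. Whether these libraries held more of the renal pelvis was not tested.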
